A study of Homo sapiens with 6 samples.

Results

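The genes described here are 43 genes that mark monocytes and macrophages or that these cells use to recognise, bind and engulf microbes and debris. They were taken by symbol from a list of receptors, adaptors, adhesion molecules, secreted proteins and phagocyte enzymes, and their levels were measured by RNA sequencing in the human leukemia line MV4;11, which derives from acute myeloid leukemia of monocytic type. Of the 43 symbols, 36 had a row among the 21857 genes of the tables. CLEC7A, CLEC4E, FCGR3A, MSR1, C1QA, C1QB and C1QC had none and were not analysed here. 26 of the 36 held enough counts for a test and 10 were too low.

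The treated group was 3 libraries of cells exposed to 10 µg/ml FKA (flavokawain A, a chalcone of the kava plant) for 48 h. The control group was 3 libraries of the same line without FKA. Every library carries the line's FLT3-ITD and MLL-AF4 genotype, so all values are from 1 leukemia line in culture and none is from normal monocytes. The labels place 1 FKA and 1 control library in each of 3 batches; they do not say whether the replicates were separate cultures, so the p-values measure the spread between these libraries. Count totals ran from 29971171 to 36362421 per library.

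Monocytes arise in the marrow from myeloid progenitors, circulate in blood and can become macrophages in tissue. On this path cells gain surface receptors for bacterial products (Toll-like receptors with CD14), for antibody-coated particles (Fc receptors), and integrins that hold them to vessels and to complement-coated targets. MLL-rearranged leukemias are often blocked at a monoblast or promonocyte stage, and monocyte surface markers are used in the clinic to read how far leukemic blasts have matured.

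In MV4;11 cells treated with FKA, 13 of the 26 tested genes rose, 3 fell and 10 were not called (edgeR quasi-likelihood test, Benjamini-Hochberg adjusted over all 13531 tested genes, threshold 0.05). The background is high: 59.8% of all tested genes were called, 29.3% as rises and 30.5% as falls. The share of these monocyte genes that was called, 61.5%, is therefore near the background. Their median log2 fold change was 0.94, against 0.011 over all tested genes. Changes that were called and reached 2-fold numbered 12 among the 26, 11 upward and 1 downward; of all tested genes 25.5% did so, 11.9% upward and 13.7% downward. A fit without FKA replicates 2 and 3, the libraries with the highest levels of mesenchymal markers, has 1 FKA library. The controls alone give its spread. In it the log2 fold changes of the 13 rises ran from 0.69 for TLR2 to 2.42 for NCF1, and some lost their calls, as given by gene below.

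A filter on low counts favours genes that are high in 1 group, and some of these genes passed it only with the help of 1 group. CD14 reached its level in 3 FKA libraries and 1 control, APOE in 3 FKA libraries and 2 controls, and CCR2 in 1 FKA library and 3 controls. Among the 20 monocyte genes that reached the filter's level in each of the 6 libraries, 11 rose, 2 fell and 7 were not called. Of the 12097 genes of the series that did so, 60.3% were called, 28.8% as rises and 31.5% as falls. All 13 rises had FKA values above every control value, and in 9 of the 13 FKA replicate 2 was the highest library. The 2 groups were apart in 16 of the 26 genes, 14 with FKA above and 2 with FKA below. Over all tested genes they were apart in 67.3%, with FKA above in 33.7% and below in 33.6%. With FKA above every control, the 13 rises were higher with FKA within each of the 3 batches too, so these signs add no evidence. The 3 genes that fell were lower with FKA in each batch. For AIF1 and CCR2, whose groups were apart, this was fixed as well, whereas the groups of CX3CR1 overlapped.

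**Figure D1:**
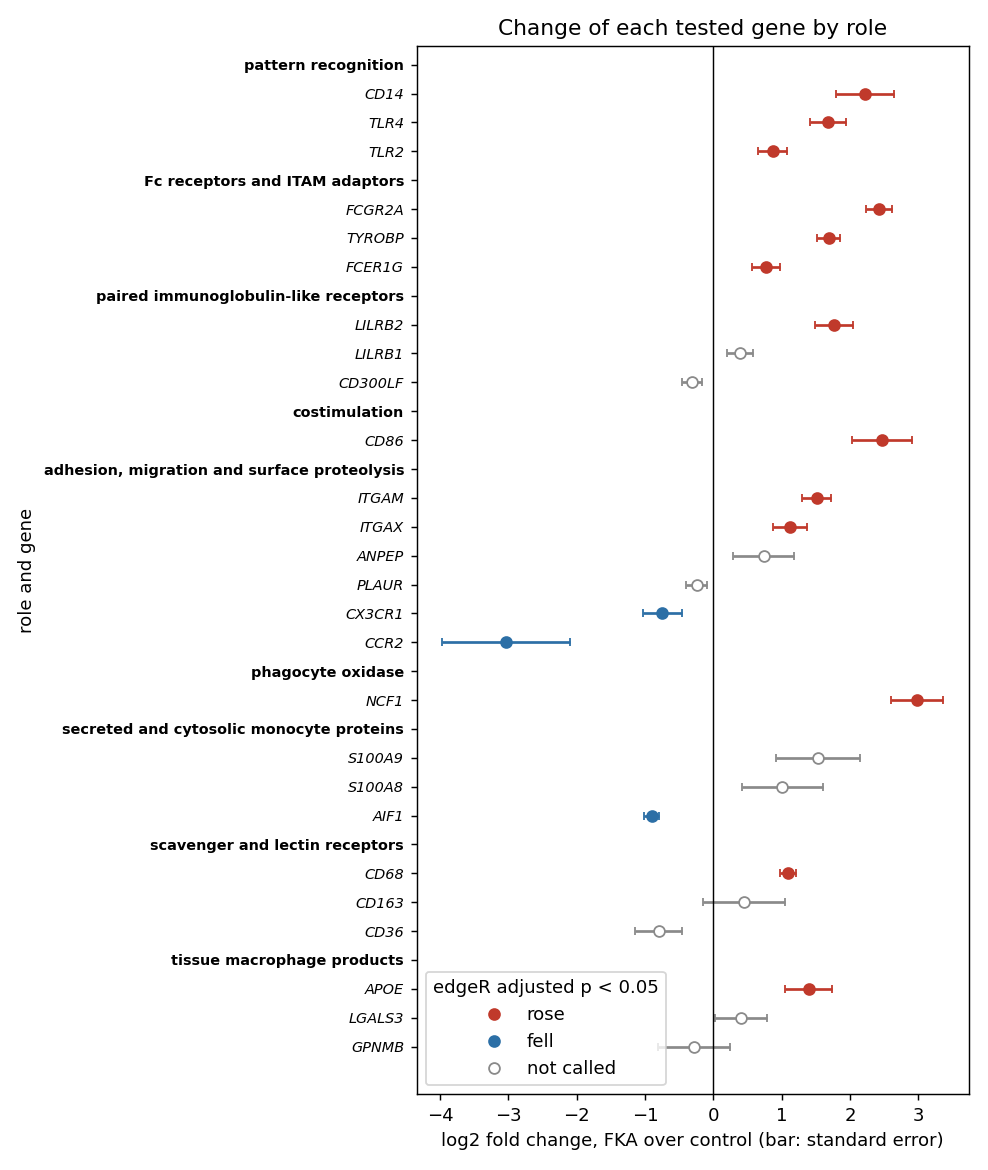
Log2 fold change of FKA over control (x axis) for the 26 tested monocyte and macrophage genes, grouped by role, with the standard error as a bar; red marks genes that rose, blue those that fell and open grey circles those not called. NCF1 stands highest at 2.98 and CCR2 lowest at -3.04, and the pattern recognition genes, the Fc receptor and the adaptors all lie to the right of 0.

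The order of the transcript levels was led by AIF1 and CD68 in both groups. Levels between genes are compared in FPKM, which divides counts by gene length and library total. The 36 listed genes summed to 318, 354 and 354 FPKM in the FKA libraries, against 306, 293 and 300.4 FPKM in controls. AIF1 held 41.9%, 33.0% and 34.7% of that sum in the FKA libraries and 73.3%, 65.1% and 69.1% in the controls. CD68 held 24.5%, 25.8% and 28.95% with FKA and 11.7%, 14.5% and 12.02% in controls. The other 34 genes together summed to 107, 146 and 129 FPKM with FKA, against 45.7, 59.9 and 56.7 FPKM in controls. A mean of at least 1 FPKM was reached by 18 of the 36 genes with FKA and by 14 in controls. NCF1 stood 4th and FCGR2A 5th in the FKA order, and 11th and 10th in the control order. CX3CR1 was 11th with FKA and 3rd in controls. In bulk RNA a change in the share of cells that express a gene and a change in RNA per cell cannot be told apart.

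**Figure D2:**
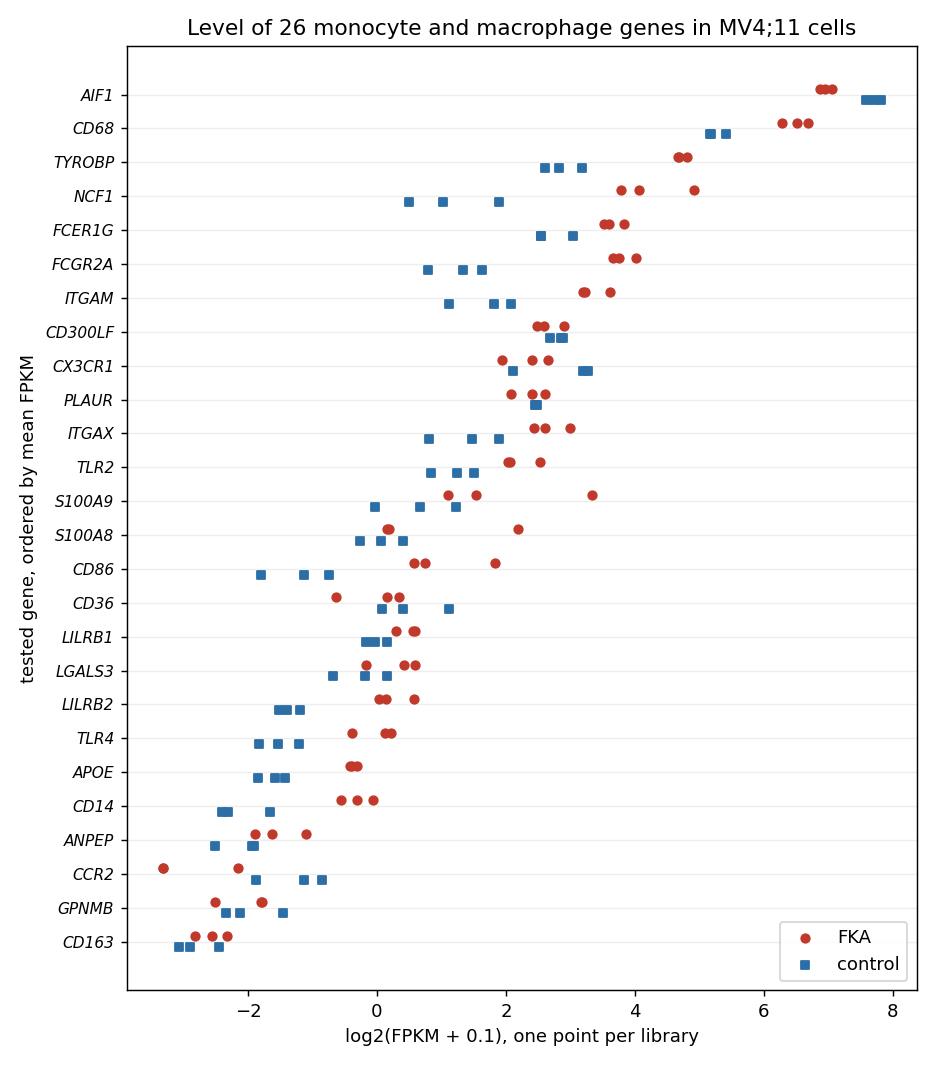
Level of each tested gene in each library as log2(FPKM + 0.1) on the x axis, with FKA libraries as red circles above control libraries as blue squares, and genes ordered by mean FPKM. FCGR2A, NCF1, TYROBP, ITGAM and CD68 show FKA points apart from and to the right of the controls, AIF1 shows them to the left, and LGALS3, GPNMB, PLAUR and CD300LF show mixed points.

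Promoter sequences of 5 genes are shown because these genes moved furthest at well-counted levels: the 4 largest rises with at least 100 counts in each FKA library and the largest fall with at least 100 counts in each control library. Each is the 250 bases before a RefSeq transcription start (GRCh38.p14). Capitals mark GAGGAA or its reverse complement TTCCTC, the purine-rich box bound by the myeloid factor PU.1. CD86 and AIF1 have 2 listed starts and the first is printed.
NCF1 promoter, chr7:74773761-74774010, plus strand: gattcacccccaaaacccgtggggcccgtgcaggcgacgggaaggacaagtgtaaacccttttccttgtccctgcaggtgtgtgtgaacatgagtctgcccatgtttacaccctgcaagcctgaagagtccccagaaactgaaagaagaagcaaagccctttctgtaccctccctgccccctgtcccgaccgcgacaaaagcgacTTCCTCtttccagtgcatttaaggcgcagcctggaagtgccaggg
CD86 promoter, chr3:122055112-122055361, plus strand: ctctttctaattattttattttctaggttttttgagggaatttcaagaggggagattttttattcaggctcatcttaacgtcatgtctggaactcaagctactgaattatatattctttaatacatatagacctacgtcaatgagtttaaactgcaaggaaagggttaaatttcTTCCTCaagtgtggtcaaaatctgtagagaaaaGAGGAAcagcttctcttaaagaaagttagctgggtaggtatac
FCGR2A promoter, chr1:161505207-161505456, plus strand: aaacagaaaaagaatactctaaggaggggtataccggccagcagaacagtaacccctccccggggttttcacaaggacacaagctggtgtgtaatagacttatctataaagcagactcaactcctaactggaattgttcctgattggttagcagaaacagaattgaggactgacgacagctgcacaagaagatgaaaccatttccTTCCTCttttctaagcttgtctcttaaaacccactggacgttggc
TYROBP promoter, chr19:35908296-35908545, minus strand: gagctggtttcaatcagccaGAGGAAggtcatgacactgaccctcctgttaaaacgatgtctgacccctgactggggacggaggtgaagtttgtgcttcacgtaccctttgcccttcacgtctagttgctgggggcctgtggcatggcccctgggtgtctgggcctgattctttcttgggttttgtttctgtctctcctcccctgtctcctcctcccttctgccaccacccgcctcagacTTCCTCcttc
AIF1 promoter, chr6:31614984-31615233, plus strand: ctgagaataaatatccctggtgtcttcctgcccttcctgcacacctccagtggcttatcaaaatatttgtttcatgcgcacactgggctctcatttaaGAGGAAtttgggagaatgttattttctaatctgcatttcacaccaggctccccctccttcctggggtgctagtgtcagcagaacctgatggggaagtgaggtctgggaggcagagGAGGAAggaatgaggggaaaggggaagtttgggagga
In NCF1 and FCGR2A the box lay 45 bases before the start, the first CD86 window held a pair that began 76 and 43 bases before the start and the second CD86 window held 0, TYROBP held them at 230 and 10 bases, and AIF1, which fell, at 152 and 37 bases in its first window and at 21 bases in its second. Searched on both strands, GAGGAA was found in 22 of 49 windows of the listed monocyte genes (44.9%; RefSeq had windows for 31 of the 36 genes), in 10 of 17 windows of the genes that rose and in 3 of 6 of those that fell. Of all 35116 windows of this length, 23.6% held it. The letters TTGCNNAA, a match to C/EBP sites, were in 6 of the 49 windows (12.2%), in 1 of 17 windows of the genes that rose (5.88%) and in 1 of 6 of those that fell, against 9.05% of all windows. A match is a string in the reference sequence and not a measured binding site. The transcript of SPI1, which encodes PU.1, was at 46.6, 54.0 and 57.4 FPKM with FKA and 39.5, 44.7 and 42.2 FPKM in controls, and did not pass the test (log2 fold change 0.16, SE 0.0973, edgeR adjusted p = 0.174).

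The receptors for bacterial products rose. CD14, the coreceptor that hands lipopolysaccharide to TLR4, had 29, 35 and 47 counts in FKA replicates 1 to 3, against 5, 13 and 6 in control replicates 1 to 3. Every FKA library was above every control, at levels that stayed low: 0.716 ± 0.142 FPKM with FKA and 0.136 ± 0.0705 FPKM in controls (SD, n = 3 each). The fitted log2 fold change was 2.22 (SE 0.419, edgeR adjusted p = 0.00174). CD14 had reached the filter level in every FKA library but in 1 of the 3 controls. It was thus tested because of its level in the FKA group, which limits the weight of this p-value. TLR4, the signalling receptor for lipopolysaccharide, was at 0.668, 0.993 and 1.07 FPKM with FKA and at 0.183, 0.247 and 0.334 FPKM in controls, without overlap (log2 fold change 1.67, SE 0.263, edgeR adjusted p = 0.000637). TLR2, which senses bacterial lipopeptides together with TLR1 or TLR6, was the most abundant of these receptors, with 4.06, 3.99 and 5.65 FPKM after FKA and 2.72, 1.69 and 2.27 FPKM in controls. Its rise was smaller than that of TLR4 in size (log2 fold change 0.87, SE 0.212, edgeR adjusted p = 0.00662), and the difference between the 2 genes was not tested. Without FKA replicates 2 and 3, CD14 (1.90, edgeR adjusted p = 0.0749) and TLR2 (0.69, edgeR adjusted p = 0.0855) lost their calls. TLR8, an endosomal receptor for RNA, was hardly detected, with 0, 1 and 0 counts after FKA and 0, 2 and 1 in controls.

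Partners of these receptors were mixed. LY96 (MD-2), the subunit of TLR4 that binds lipopolysaccharide, rose (log2 fold change 0.79, edgeR adjusted p = 0.0274), but not without FKA replicate 1, FKA replicate 2 or control replicate 3, where its adjusted p was between 0.0712 and 0.0939. In the list of 20 partners of Toll-like and C-type lectin receptors, 17 were tested and 52.9% of these were called, against 59.8% of all tested genes. Of the 17, 6 rose, 3 fell and 8 were not called (median log2 fold change 0.26). The kinase IRAK2 rose by 2.19. CARD9, the adaptor that carries C-type lectin signals, fell to 0.179 ± 0.0434 FPKM with FKA, against 0.635 ± 0.108 FPKM in controls (log2 fold change -1.99). CD180, a Toll-like receptor homologue, fell as well (-2.79, and -3.73 without FKA replicate 2).

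Fc receptor FCGR2A and both ITAM adaptors rose. FCGR2A (CD32A), an activating receptor for immunoglobulin G, was at 12.6, 16.1 and 13.4 FPKM with FKA, against 1.63, 2.98 and 2.43 FPKM in controls. The lowest FKA library was more than any control, and the log2 fold change was 2.42 (SE 0.193, edgeR adjusted p = 1.82e-05). TYROBP (DAP12), an adaptor whose ITAM motif recruits the kinase SYK, was at 25.6, 27.9 and 25.2 FPKM with FKA and at 5.98, 8.94 and 7.01 FPKM in controls (log2 fold change 1.69, SE 0.168, edgeR adjusted p = 5.78e-05). The 3 FKA libraries lay close together and far above the controls. FCER1G, the common gamma chain of several Fc receptors, was at 11.98, 14.1 and 11.3 FPKM with FKA, against 8.08, 5.73 and 5.74 FPKM in controls (log2 fold change 0.77, SE 0.21, edgeR adjusted p = 0.0114). Its call was lost without FKA replicates 2 and 3 (0.71, edgeR adjusted p = 0.123). The FPKM of TYROBP was 2.13, 1.98 and 2.22 times that of FCER1G in the FKA libraries, and 0.739, 1.56 and 1.22 times in the controls.

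Other Fc receptor genes moved in opposite directions. FCGR2B, the inhibitory relative of FCGR2A, rose to 1.88, 3.79 and 3.34 FPKM with FKA, against 0.257, 0.741 and 0.274 FPKM in controls (log2 fold change 2.67, edgeR adjusted p = 0.000604, and 3.30 without control replicate 2). FCGR2A and FCGR2B are similar in sequence and the counting of shared reads is not given, so the division of reads between them is uncertain. FCGR1A (CD64), the high-affinity receptor and a monocyte marker, named after its values were seen, fell: it was at 4.17, 4.22 and 4.49 FPKM with FKA and at 10.8, 13.2 and 16.6 FPKM in controls (log2 fold change -1.82, edgeR adjusted p = 5.82e-05). Among 13 genes of ITAM and Src kinase signalling, 12 were tested, 6 rose, 0 fell and 6 were not called (8 rose with library totals as the scaling). The called share was 50%, against 59.8% of all tested genes. The median of the list was 0.36 and no gene in it reached 2-fold. FES (0.83), the lipid kinase subunit PIK3CG (0.62) and SYK (0.43) had the largest rises.

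Of the paired immunoglobulin-like receptors, LILRB2 rose. LILRB2, an inhibitory receptor for HLA class I and angiopoietin-like proteins, was at 0.918, 1.39 and 1.01 FPKM with FKA, against 0.280, 0.251 and 0.338 FPKM in controls (log2 fold change 1.76, SE 0.282, edgeR adjusted p = 0.000693). Its relative LILRB1 was at 1.13, 1.41 and 1.37 FPKM with FKA and at 0.786, 1.01 and 0.881 FPKM in controls. Those groups did not overlap, but the gene was not called (log2 fold change 0.39, SE 0.186, edgeR adjusted p = 0.101), apart from 2 of the alternatives, library totals (0.54, edgeR adjusted p = 0.0371) and limma on log2(FPKM + 1) of genes with a mean of at least 1 FPKM (limma adjusted p = 0.0478). CD300LF, an inhibitory receptor of myeloid cells that binds lipids, overlapped between groups, with 5.47, 7.33 and 5.89 FPKM with FKA and 6.31, 7.31 and 7.10 FPKM in controls (log2 fold change -0.31, edgeR adjusted p = 0.096). Without FKA replicate 2 it was called (-0.43, edgeR adjusted p = 0.0416). CD300E, an activating receptor of mature monocytes, had 1, 2 and 7 counts with FKA and 0 in every control. With the control group set at a floor of 3 counts it was 3.77-fold higher with FKA, a value that leaves out counting error.

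The costimulatory molecule CD86 rose. CD86, a ligand of CD28 on T cells, was at 1.38, 3.47 and 1.58 FPKM with FKA and at 0.358, 0.498 and 0.186 FPKM in controls. FKA replicate 2 stood highest, and the other FKA libraries were also above all controls (log2 fold change 2.46, SE 0.438, edgeR adjusted p = 0.00126). CD80, the second ligand of CD28, had 0 counts in every FKA library and 0, 2 and 0 counts in the controls, too few for any comparison.

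The myeloid integrins rose, while the chemokine receptors CX3CR1 and CCR2 fell with calls that depended on the libraries kept. ITGAM (CD11b), a subunit of complement receptor 3, was at 9.03, 12.2 and 9.24 FPKM with FKA, against 2.08, 4.14 and 3.41 FPKM in controls (log2 fold change 1.51, SE 0.219, edgeR adjusted p = 0.000415). ITGAX (CD11c), a subunit of complement receptor 4, was at 5.30, 7.85 and 5.99 FPKM with FKA and at 1.65, 3.61 and 2.68 FPKM in controls (log2 fold change 1.12, SE 0.247, edgeR adjusted p = 0.00404). In both genes the groups were apart, with FKA replicate 2 and control replicate 2 the highest of their groups. Without FKA replicates 2 and 3, ITGAX was not called (0.84, edgeR adjusted p = 0.0863). The beta subunit that both need, ITGB2, was far more abundant, at 83.1, 82.4 and 101 FPKM with FKA, against 64.1, 61.4 and 65.3 FPKM in controls. Its small rise (log2 fold change 0.32, edgeR adjusted p = 0.0309) was lost without FKA replicate 3 (0.21), control replicate 2 (0.26) or control replicate 3 (0.34). ITGAM amounted to 0.109, 0.148 and 0.0919 times the FPKM of ITGB2 with FKA, and to 0.0324, 0.0674 and 0.0521 times in controls.

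CX3CR1, the fractalkine receptor of patrolling monocytes, was at 3.73, 6.17 and 5.20 FPKM with FKA and at 4.21, 9.09 and 9.51 FPKM in controls. Control replicate 1 lay within the range of the FKA libraries, so the groups overlapped. The fall was at the edge of the threshold (log2 fold change -0.75, SE 0.288, edgeR adjusted p = 0.0485). It missed the threshold without FKA replicate 1 (-0.58), FKA replicate 3 (-0.78), control replicate 2 (-0.64) or control replicate 3 (-0.55), with adjusted p between 0.0895 and 0.168, with library totals (-0.60, edgeR adjusted p = 0.111), upper-quartile scaling (edgeR adjusted p = 0.0683) or the filter of 1 CPM (edgeR adjusted p = 0.0567), in the 3 limma fits on FPKM (limma adjusted p between 0.166 and 0.323), and without FKA replicates 2 and 3 (-1.19, edgeR adjusted p = 0.0619). When the batch entered as a block its adjusted p was 0.00501 in edgeR (-0.70). CCR2, the receptor by which classical monocytes follow CCL2 out of the marrow, had 0, 0 and 15 counts with FKA, against 21, 47 and 59 in controls. It was low in all libraries, and FKA replicate 3 held every FKA count. The log2 fold change was -3.04 (SE 0.936, edgeR adjusted p = 0.0199). It was -8.37 without FKA replicate 3, a value fitted against 0 counts and so no bound, and the call was lost without FKA replicate 1 (-2.48), FKA replicate 2 (-2.48) or control replicate 3 (-2.72), and in DESeq2 (adjusted p = 0.173).

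Both genes of surface proteolysis missed the threshold. PLAUR, the urokinase receptor, was at 4.13, 5.20 and 5.96 FPKM with FKA and at 5.49, 5.43 and 5.34 FPKM in controls (log2 fold change -0.25, edgeR adjusted p = 0.19). ANPEP (CD13), an aminopeptidase of myeloid cells, was at 0.170, 0.364 and 0.222 FPKM with FKA and at 0.162, 0.0750 and 0.167 FPKM in controls (0.73, edgeR adjusted p = 0.184). Of the 12 further integrin and chemokine partners, 75% were called, against 59.8% of all tested genes. Among these partners 5 rose, 4 fell and 3 were not called (median 0.15). CSF1R, the receptor for macrophage colony-stimulating factor, had the largest rise (3.60), at 5.40, 7.80 and 4.44 FPKM with FKA, against 0.384, 0.534 and 0.387 FPKM in controls. ITGA4 (CD49d) fell to 8.48 ± 1.496 FPKM, against 30.2 ± 3.88 FPKM in controls (-1.98), and the chemokine receptor CCR1 fell by 1.82 on the log2 scale.

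The cytosolic oxidase subunit NCF1 had the largest rise among the monocyte genes. NCF1 (p47phox), which carries the cytosolic part of the phagocyte NADPH oxidase to the membrane, had 564, 1215 and 747 counts with FKA, against 60, 178 and 94 in controls. In FPKM it was at 13.7, 30.1 and 16.7 with FKA and at 1.32, 3.63 and 1.94 in controls, with replicate 2 the highest in both groups (log2 fold change 2.98, SE 0.386, edgeR adjusted p = 0.000225). The log2 difference in batches 1, 2 and 3 was 3.14, 2.92 and 2.92. The human genome holds near-identical copies of NCF1, named NCF1B and NCF1C, which had no rows in the tables, so reads of the copies may be counted in NCF1. CYBB (gp91phox), the catalytic subunit of the oxidase in the membrane, had 0 counts in every FKA library and 3, 4 and 4 counts in the controls. With the FKA group set at a floor of 3 counts it was 3.24-fold lower with FKA, a value that leaves out counting error. The gene had no test under the filter. In a fit without the filter it was called (edgeR adjusted p = 0.0192). CYBA, the membrane partner of CYBB, rose (0.60), as did the cytosolic subunit NCF4 (1.33, 38.2 ± 5.79 FPKM with FKA and 13.7 ± 1.57 FPKM in controls) and the GTPase RAC1 (0.40, and 0.43 without FKA replicates 2 and 3, edgeR adjusted p = 0.0604). Of the 6 oxidase partners, 4 rose, 0 fell and 2 were not called. That share, 66.7% called, is near the 59.8% of all tested genes.

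Of the 3 tested genes for secreted and cytosolic monocyte proteins, 0 rose, 1 fell and 2 were not called. AIF1 (IBA1), a calcium-binding protein of monocytes and macrophages and the most abundant gene described here, fell. It was at 133, 117 and 123 FPKM with FKA and at 224, 191 and 208 FPKM in controls, without overlap (log2 fold change -0.90, SE 0.107, edgeR adjusted p = 0.00014). S100A9 and S100A8, the subunits of calprotectin, were low and uneven. S100A9 had 49, 35 and 190 counts with FKA, against 17, 31 and 46 in controls, so FKA replicate 3 stood apart while replicate 2 lay inside the control range. It missed the threshold (log2 fold change 1.54, SE 0.614, edgeR adjusted p = 0.0557), and was called when the batch entered as a block (1.32, edgeR adjusted p = 0.0205), in DESeq2 (adjusted p = 0.0198), with upper-quartile scaling (edgeR adjusted p = 0.0475), library totals (edgeR adjusted p = 0.038) or no filter (edgeR adjusted p = 0.0204), and without FKA replicate 1 (1.82, edgeR adjusted p = 0.0442) or FKA replicate 2 (1.91, edgeR adjusted p = 0.021). Without FKA replicate 3 its log2 fold change was 0.49. S100A8 had 23, 22 and 107 counts with FKA and 18, 25 and 32 in controls (1.01, edgeR adjusted p = 0.17), and its log2 fold change was -0.085 without FKA replicate 3. The ratio of S100A9 to S100A8 FPKM was 2.70, 2.02 and 2.25 with FKA, and 1.20, 1.57 and 1.82 in controls.

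These S100 proteins are also abundant in neutrophils. Of the 6 tested granule genes, MPO, MS4A3, ELANE, AZU1 and PRTN3 were highest in FKA replicate 3 among the FKA libraries, while CTSG, at 331, 196 and 303 FPKM in FKA replicates 1 to 3, was highest in replicate 1. MPO was at 0.254, 0.104 and 0.684 FPKM with FKA and at 9.92, 9.21 and 19.96 FPKM in controls. MS4A3 was at 0.892, 0.344 and 3.81 FPKM with FKA and at 8.81, 5.28 and 17.5 FPKM in controls. With FKA, ELANE (1.09, edgeR adjusted p = 0.0434) and AZU1 (0.62, edgeR adjusted p = 0.0254) rose, with groups that overlapped. ELANE was at 273, 151 and 580 FPKM with FKA and at 167, 118 and 136 FPKM in controls. MPO (-5.36), MS4A3 (-2.79), CTSG (-2.18) and PRTN3 (-1.56) fell, with groups apart. The 7 listed granule genes summed to 1469, 932 and 1939 FPKM with FKA and 1886, 1959 and 1542 FPKM in controls. The part of these markers in the S100 values was not tested. S100A12, another member of this protein group, had 3, 0 and 1 counts with FKA and 0, 0 and 1 in controls, a count ratio of 4.53 with an exact 95% interval from 0.448 to 223. FCN1 (ficolin-1), a lectin of classical monocytes, had 0 counts in every FKA library and 1 in the controls. VCAN (versican), a proteoglycan of classical monocytes and of connective tissue cells, had 1, 11 and 12 counts with FKA and 3, 3 and 2 in controls (count ratio 3.40, exact 95% interval from 1.48 to 8.75). Such intervals cover counting error alone.

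**Figure D3:**
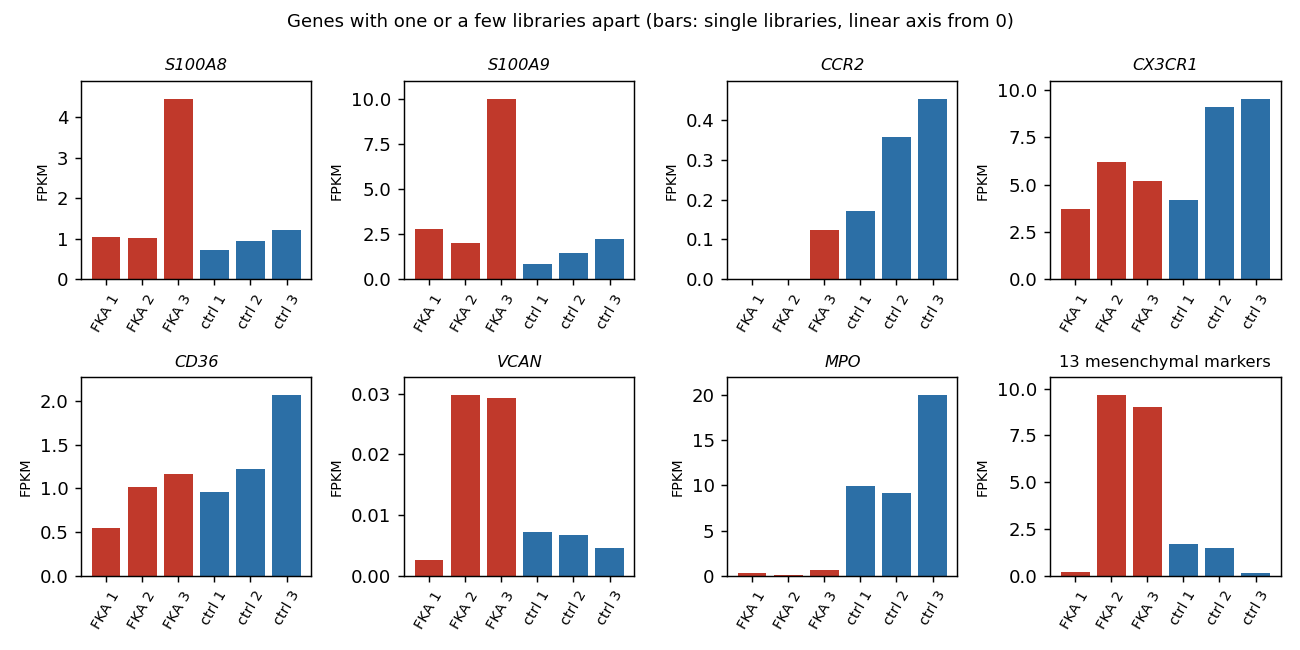
FPKM in each library for S100A8, S100A9, CCR2, CX3CR1, CD36, VCAN and the granule gene MPO, and the summed FPKM of 13 mesenchymal markers, with FKA libraries in red and controls in blue. FKA replicate 3 is alone high in S100A8 and S100A9 and alone above 0 in CCR2 among FKA libraries, while FKA replicates 2 and 3 are high in VCAN and in the mesenchymal sum.

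Among scavenger and lectin receptors, which take up modified lipids, haemoglobin and glycans, CD68 was the abundant member and rose. CD68, a lysosomal glycoprotein used as a macrophage marker, was at 77.7, 91.1 and 102 FPKM with FKA, against 35.8, 42.4 and 36.1 FPKM in controls (log2 fold change 1.09, SE 0.114, edgeR adjusted p = 7.36e-05). In the GENCODE 29 annotation a gene model on the same strand (AC016876.2), with no row in the tables, shares 81.7% of the exon bases of CD68, so reads of such a transcript would be counted with CD68. CD36, a receptor for oxidised lipoproteins and fatty acids, was at 0.545, 1.02 and 1.16 FPKM with FKA and at 0.957, 1.22 and 2.06 FPKM in controls. The groups overlapped and the gene missed the threshold (log2 fold change -0.80, SE 0.344, edgeR adjusted p = 0.0719). FKA was lower in each batch (-0.99, -0.38 and -0.99), and a block for the batch brought CD36 past the threshold (-0.79, edgeR adjusted p = 0.00979), as did DESeq2 (adjusted p = 0.0321), no filter (edgeR adjusted p = 0.0247) and leaving out control replicate 1 (-1.01, edgeR adjusted p = 0.0338). Without FKA replicates 2 and 3 it was called at -1.54 (edgeR adjusted p = 0.0363).

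The scavenger receptors of mature tissue macrophages were near 0 in both groups. CD163, the haemoglobin scavenger receptor, had 13, 9 and 6 counts with FKA and 5, 13 and 3 in controls (log2 fold change 0.45, edgeR adjusted p = 0.538). MARCO had 1, 2 and 4 counts with FKA and 2, 3 and 7 in controls. SIGLEC1 (CD169), a sialic acid receptor, had 4, 1 and 4 counts with FKA and 1, 1 and 0 in controls, a count ratio of 5.10 with an exact 95% interval from 1.05 to 48.5. MRC1 (CD206), the mannose receptor, had 1 count with FKA and 0 in controls. None of these levels reached 0.1 FPKM in any library.

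Of the tissue macrophage products, APOE rose at a low level. APOE, the lipid carrier that macrophages secrete, had 28, 30 and 31 counts with FKA, against 13, 12 and 9 in controls. The groups did not overlap, and the gene had reached the filter level in every FKA library but in 2 of the 3 controls (log2 fold change 1.40, SE 0.343, edgeR adjusted p = 0.00695), and the call was lost without FKA replicates 2 and 3 (1.34, edgeR adjusted p = 0.144). LGALS3 (galectin-3), a secreted lectin, was at 0.786, 1.40 and 1.24 FPKM with FKA and at 1.01, 0.523 and 0.779 FPKM in controls (0.40, edgeR adjusted p = 0.383). GPNMB, a glycoprotein of lipid-laden macrophages, was at 0.188, 0.191 and 0.0756 FPKM with FKA and at 0.265, 0.0985 and 0.129 FPKM in controls (-0.29, edgeR adjusted p = 0.662), and its sign was positive without FKA replicate 3 or control replicate 1.

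Further monocyte genes and macrophage pathways outside the 43 were mixed too. Over all tested genes 59.8% were called. The share was 77.3% for other monocyte and macrophage genes, 70% for complement and phagocytosis genes and 80% for macrophage lipid genes. Of 28 other monocyte and macrophage genes, 22 were tested, of which 9 rose, 8 fell and 5 were not called (median 0.17). The ferritin chains FTL (3.14) and FTH1 (2.20), which store iron, led the rises among well-counted genes (20 or more on average in the FKA libraries), and the phagosomal metal transporter SLC11A1 fell (-3.16, and -4.32 without FKA replicate 2). Ferritin genes have many processed pseudogenes, so their reads may be divided among copies. Of 16 complement and phagocytosis genes, 10 were tested, 5 rose, 2 fell and 3 were not called (median 0.86). Complement factor D (CFD) was at 302, 260 and 531 FPKM with FKA and at 51.1, 50.3 and 55.4 FPKM in controls (2.64), C3 rose by 2.63, and the receptor tyrosine kinase AXL, which binds apoptotic cells, fell by 5.26 on the log2 scale. Of 15 macrophage lipid genes, 10 were tested, 6 rose, 2 fell and 2 were not called (median 0.61), with the sterol sensor NR1H3 (1.30, and 1.23 without FKA replicates 2 and 3, edgeR adjusted p = 0.119) and the lysosomal receptor SCARB2 (1.26) higher and the fatty acid binder FABP5 lower (-2.24).

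Of 12 tested transcription factors of the monocyte path, 58.3% were called, against 59.8% of all tested genes. These factors showed 3 rises, 4 falls and 5 not called. Their median was -0.044, and 0.12 with library totals. ID2 (1.59) and BACH1 (0.96) rose and CEBPB, which takes part in macrophage activation, fell to 7.85 ± 2.12 FPKM, against 19.4 ± 3.27 FPKM in controls (-1.46).

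**Figure D4:**
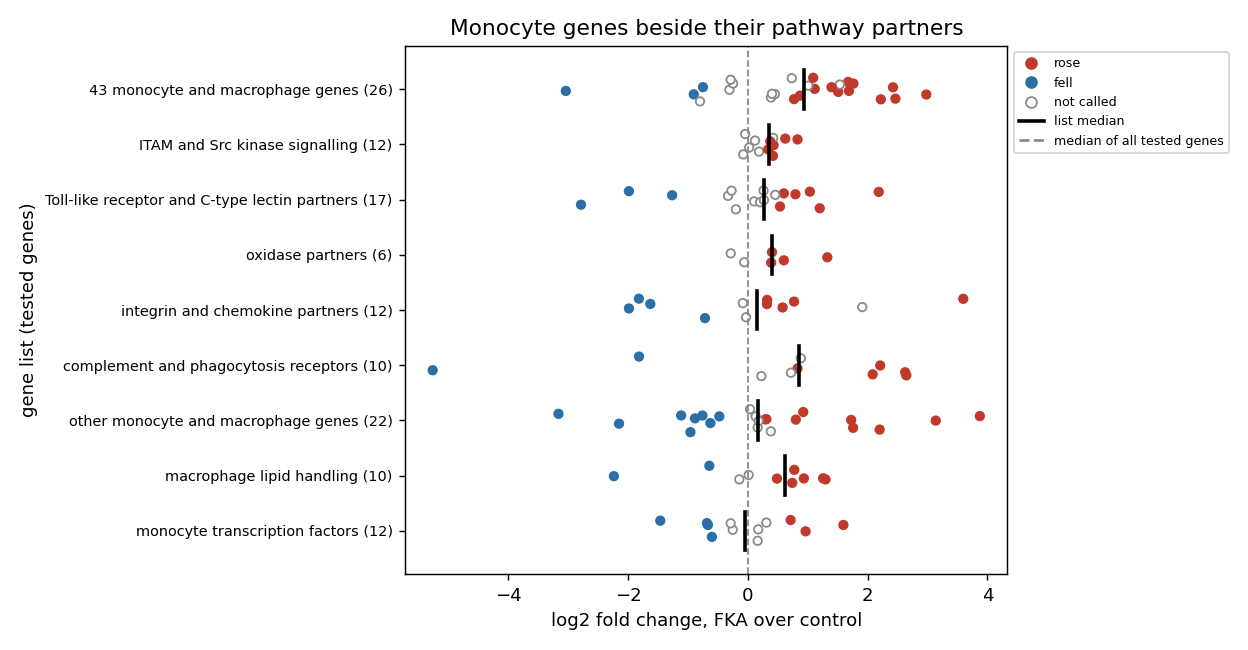
Log2 fold change of FKA over control (x axis) for the tested monocyte and macrophage genes and for 8 lists of partners, 1 point per gene, red for rises, blue for falls and open for genes not called, with the list median as a black bar and the median of all tested genes as a dashed line. The monocyte genes have a median of 0.94, the partner lists between -0.044 and 0.86.

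Reads of genes that mark other cells were also counted in these libraries. Of the 13 mesenchymal markers, 6 were tested and 0 were called by edgeR (2 at an unadjusted p under 0.05) or by DESeq2. The summed level of the 13 was 0.211, 9.63 and 9.01 FPKM in FKA replicates 1 to 3, against 1.72, 1.46 and 0.122 FPKM in control replicates 1 to 3. COL1A1 was at 0.0606, 2.34 and 2.28 FPKM with FKA and at 0.374, 0.380 and 0.0187 FPKM in controls, and FN1 was at 0.0726, 3.11 and 2.78 FPKM with FKA and at 0.588, 0.539 and 0.0583 FPKM in controls. VCAN, ANPEP, LGALS3, APOE and CD36 are also known from connective tissue cells, and the part of such cells in their values was not tested. The mesenchymal sum was lowest among the FKA libraries in replicate 1, at 0.211 FPKM. All 13 monocyte genes that rose were above every control there, which was fixed by their groups being apart and adds no evidence. In the fit that keeps FKA replicate 1 as the lone FKA library, the log2 fold changes of these 13 genes ran from 0.69 for TLR2 to 2.42 for NCF1. That fit takes its spread from the 3 controls and assumes that the lone library varies like them. Whether mesenchymal reads had a part in these rises was not tested. Of 11 T and NK cell markers, 7 had a row and 2 were tested. NKG7 fell (-1.28) and was at 11.1 ± 0.213 FPKM with FKA and 24.2 ± 2.24 FPKM in controls (SD, n = 3 each), and NCAM1, which was not called (-0.48, edgeR adjusted p = 0.0598), was at 16.1 ± 4.10 FPKM with FKA and 20.2 ± 4.94 FPKM in controls. Of 6 B cell markers, 4 had a row and 2 were tested: PAX5 fell to 0.958 ± 0.120 FPKM, against 2.50 ± 0.311 FPKM in controls (-1.54), and CD79A was not called (-0.31, edgeR adjusted p = 0.653). Of the dendritic cell markers BATF3 alone was tested, and it fell to 1.42 ± 0.927 FPKM, against 9.61 ± 1.56 FPKM in controls (-2.91). Of 6 epithelial markers, 3 were tested. KRT18 fell to 7.28 ± 1.54 FPKM, against 9.54 ± 0.831 FPKM in controls (-0.55, edgeR adjusted p = 0.019). KRT8, at 2.86 ± 0.602 FPKM with FKA and 2.16 ± 0.502 FPKM in controls, and EPCAM were not called. The 8 genes listed for the line's identity were counted in every library. MEIS1 rose (0.58, edgeR adjusted p = 0.0434), while HOXA9 (-0.52, edgeR adjusted p = 0.0437) and HOXA10 (-0.38, edgeR adjusted p = 0.0415) fell. The groups overlapped in each of these genes. The falls depended on the scaling: with upper-quartile factors or library totals, 2 of the 8 genes rose and 0 fell. PTPRC, FLT3, CD33, PBX3 and MEF2C were not called.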

How the data were processed

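RNA sequencing was done on total RNA isolated with a purchased kit, per the labels' protocols. No aligner, counter, annotation, library preparation or strand setting is named there. The submitters' processing notes list the mouse builds GRCm38 and mm10, while the gene symbols are human, so coordinates are given for RefSeq promoters alone. The authors deposited whole-number read counts per gene and FPKM values, with a column per library. Each FPKM value equals the count divided by the library total and by a length fixed for the gene.

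The counts went through edgeR 4.0.16 in R 4.3.3 (filterByExpr, TMM scaling, quasi-likelihood test of FKA against control without the batch), which left 13531 genes. The SE of a log2 fold change was derived from that test, as its absolute size divided by the square root of the F value. The test was also run on simulated counts in which few genes were changed. Here 59.8% of tested genes were called, so that run does not check the calls in a setting like these data. Fold changes are relative to TMM, whereas FPKM is scaled by totals; with totals in place of TMM the median of all genes was 0.16 higher on the log2 scale. Alternatives were the batch as a block, DESeq2 1.42.0, RLE, upper-quartile and total scaling, other filters, limma 3.58.1 on log2(FPKM + 1) and log2(FPKM + 0.1), and left-out libraries; those for the partner lists were chosen after seeing the data. The labelled batch equals the replicate number and so pairs 1 FKA with 1 control library; deviations from the group means correlated by 0.054, 0.34 and -0.077 in batches 1 to 3. Replicate libraries of a group differed beyond sampling noise, by a chi-square of at least 21.7 per degree of freedom.

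All 43 genes are named. Each partner list contributes its called genes of largest change, up to 3, if the higher group averaged 20 or more counts; subunit partners are named beside them, as are abundant markers of other cells. The genes, lists, motifs and tests were chosen with earlier results of these data known, and the printed promoters after the values were seen.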

Additional observations from a re-analysis of the deposited data

How the results depend on the processing

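The count of called monocyte genes was 16 of 26 in the reported analysis, where 59.8% of all tested genes were called. It was between 11 and 20 under the alternatives with more than 1 library per group, with more rises than falls in each. The number of monocyte genes fitted differed between these. It was 20 called of 36 without the filter, where 8288 of all 21857 listed genes were called. With the filter of 1 CPM it was 12 of 19, with 7560 genes called over the whole table. With a mean FPKM of at least 1 it was 11 of 17, with 6846 genes called over the whole table. The share of 59.8% belongs to the reported analysis alone. Leaving out 1 library gave between 14 and 17 called genes, between 11 and 14 with at least 2-fold changes, and between 7090 and 8193 called genes over the whole table. Leaving out FKA replicates 2 and 3 together gave 4619 called genes over the whole table, with fewer samples in the fit. On log2(FPKM + 1), 7 monocyte genes were called with at least 2-fold changes, and also 7 among genes with a mean FPKM of at least 1, where the pseudocount shrinks the change of low genes. The sign turned in 7 single values, all of genes that were not called: S100A8 without FKA replicate 3 (-0.085) and without FKA replicates 2 and 3 (-0.068), LGALS3 without FKA replicates 2 and 3 (-0.14), and GPNMB without FKA replicate 3 (0.038), without control replicate 1 (0.25) and without FKA replicates 2 and 3 (0.022), and the partner SPI1 without FKA replicates 2 and 3 (-0.020). Leaving out 1 library gave S100A8 between -0.085 and 1.35 and GPNMB between -0.58 and 0.25. The cause was not tested. The batch as a replicate block gave 18 called monocyte genes and 8289 over the whole table; it added S100A9 and CD36 and changed no other call among the tested monocyte genes. Library totals and FPKM moved the share of higher calls over all genes to 60.3% and 61.6%, against 48.9% with TMM, and library totals gave 15 rises and 2 falls among the monocyte genes. The 10 untested genes had too few counts at this depth for a difference to be detected by the filtered fit; without the filter CD300E and CYBB were called (edgeR adjusted p = 0.0366 and 0.0192).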
